A study of Mus musculus with 64 samples.

Results

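The genes described here are 10 mouse genes of the inflammasome. They are the sensors Nlrp1a, Nlrp1b, Nlrp3, Nlrp6, Nlrc4 and Naip1, the adaptor Pycard, the proteases Casp1 and Casp4, and the cytokine Il18. They were taken by gene symbol from both deposited gene tables, where each symbol stood for 1 of 35534 genes. The set was chosen by name around Nlrp1b, which was itself selected on its measured levels in these libraries, so the values of Nlrp1b are given as a description with no test.

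An inflammasome is a protein complex that assembles in the cytosol when a sensor meets a danger signal or a microbial product. The sensor, directly or through the adaptor ASC (encoded by Pycard), gathers caspase-1, which then cuts the precursors of interleukin 1 beta and interleukin 18 and opens gasdermin D pores in the cell membrane. In the colon, epithelial cells hold a large store of interleukin 18 precursor, and Naip and Nlrc4 proteins in the same cells detect bacterial flagellin and secretion needles.

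Whole colon of wild-type (WT) Swiss Webster mice, an outbred stock, was profiled by RNA sequencing of poly(A)-selected RNA in 64 libraries. Mice of 8 to 12 weeks were either specific pathogen free (SPF), which carry a gut microbiota, or germ-free (GF), which carry none. Each mouse had 100 µl injections into the peritoneal cavity, of PBS or of PBS with 2.5 mg vancomycin (an antibiotic against Gram-positive bacteria), 2 a day on 3 days and a final one on day 4. Colons were collected at zeitgeber time (ZT, hours after lights on in a 12 h light cycle) 5, 11, 17 or 23. The 16 groups were thus SPF or GF, PBS or vancomycin, at 4 times, with 4 libraries in each. GF mice left their isolators for ISOcages during the injections, with PBS or vancomycin alike. The title frames the study around effects of antibiotics on gut immunity that do not need the microbiota, and the GF groups bear on that. The labels do not say whether each library is a separate mouse, so p-values measure the spread between libraries.

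The summed estimated counts of a library ran from 10044032 to 13615804 among SPF mice and from 10513966 to 15736087 among GF mice. Levels are given as counts per 1000000 (CPM). All 8 epithelial markers were expressed, with a summed level of 8184 to 14350 CPM in SPF and 9191 to 23870 CPM in GF libraries. The summed level of 5 posterior Hox genes, which mark the distal colon, was 105.8 to 542.7 CPM in SPF libraries but 7.20 to 525.1 CPM in GF libraries. The 4 Y-linked genes summed to 209.5 to 280.4 CPM in SPF libraries and 17.1 to 301.0 CPM in GF libraries. In GF mice their median was 227.4 CPM with PBS and 73.7 CPM with vancomycin, and at ZT5 they ran from 181.5 to 240.0 CPM with PBS and from 30.02 to 153.8 CPM with vancomycin. With the Y-linked level as a term, 0 of the 8 members tested passed for vancomycin in GF mice, as without it. With 0 calls in both fits, these counts cannot show the part of that level in the GF values below, which was not tested further. At GF ZT5, where the Y-linked ranges did not overlap, vancomycin and the Y-linked level cannot be told apart. Of 7 T cell markers, 7 had a positive vancomycin value in SPF mice and 1, Cd3d, rose (log2 value 1.92 ± 0.46, adjusted p = 0.0428, edgeR), and their summed level ran from 6.71 to 260.1 CPM with PBS and from 9.90 to 414.4 CPM with vancomycin. In such bulk RNA, a change in the number of cells of a type and a change in RNA per cell cannot be told apart.

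Per kilobase of the longest annotated transcript, the members fell into 3 ranges of level. The median over 32 SPF libraries was 76.9 CPM per kilobase for Casp1, 73.7 for Il18, 45.2 for Naip1 and 41.3 for Nlrp6. It was 15.2 CPM per kilobase for Pycard, 14.9 for Casp4 and 8.21 for Nlrc4. Nlrp1b had 1.01, Nlrp1a 0.126 and Nlrp3 0.106 CPM per kilobase. The ranges depend on the transcript taken, which was 3800 bases long for Pycard, 1497 for Casp1 and 885 for Il18. A shorter transcript would give a higher value, and which transcripts were expressed was not tested. In the 32 GF libraries the same medians were 82.6 for Casp1, 29.95 for Il18, 44.1 for Naip1, 49.2 for Nlrp6, 14.6 for Pycard, 9.88 for Casp4 and 9.90 for Nlrc4. Sequence shared with copies limits some of these values, since 44.3% of the 31-base words of Naip1 transcripts occur in other genes, 32.8% in Naip3 and 21.3% in Naip5. For Nlrp1a 6.78% of such words occur in Nlrp1b, and for Nlrp1b 4.62% occur in Nlrp1a.

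Nlrp1b (ENSMUSG00000070390) encodes a sensor that fires when pathogen proteases such as anthrax lethal factor cleave it. Libraries had either several CPM of Nlrp1b or less than 1 CPM. Counting a library as on at 1 CPM or more, 17 of 32 SPF libraries were on, at 3.35 to 10.2 CPM, and 15 were off, at 0.0949 to 0.832 CPM. In GF mice 16 of 32 libraries were on, at 6.29 to 19.4 CPM, and 16 were off, at 0.135 to 0.836 CPM. The lowest on library thus stood 4.02 times above the highest off library in SPF and 7.53 times in GF mice. The off libraries held 1.14 to 9.93 estimated Nlrp1b counts in SPF and 1.98 to 10.8 in GF mice, against 34.8 to 130.3 and 90.0 to 238.5 in the on libraries.

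On and off libraries followed the groups closely in SPF mice. At ZT5 the 4 PBS libraries had 6.28, 6.32, 6.50 and 6.84 CPM of Nlrp1b, and the 4 vancomycin libraries had 7.95, 7.54, 7.84 and 7.77 CPM. All 8 were on, and the vancomycin libraries lay above the PBS libraries, with a log2 difference of 0.26 that was not tested. The 2 treatments did not overlap, in either direction, for 8.73% of all genes at that time. At ZT11 PBS libraries had 0.342, 0.312, 0.660 and 5.40 CPM and vancomycin libraries 7.76, 6.47, 7.17 and 3.35 CPM. Here 1 PBS library was on beside 3 off, all 4 vancomycin libraries were on, and the groups overlapped. At ZT17 PBS libraries had 6.29, 9.83, 9.51 and 10.2 CPM and vancomycin libraries 0.238, 0.832, 0.0949 and 0.427 CPM. The group means were 8.95 ± 1.79 with PBS and 0.398 ± 0.320 with vancomycin (SD, n = 4 each), a log2 difference of -4.46. These are the values for which the gene was picked. The 2 treatments did not overlap, in either direction, for 5.93% of all genes at ZT17. At ZT23 PBS libraries had 0.264, 0.345, 0.172 and 0.490 CPM and vancomycin libraries 0.368, 0.305, 0.167 and 0.444 CPM, so all 8 were off. Ordered by mean level, SPF PBS ZT17 (8.95 CPM) and vancomycin ZT5 (7.77 ± 0.171 CPM) stood first, followed by PBS ZT5 (6.48 ± 0.258 CPM), vancomycin ZT11 (6.19 ± 1.96 CPM) and PBS ZT11 (1.68 ± 2.49 CPM). The last were vancomycin ZT17, vancomycin ZT23 (0.321 ± 0.117 CPM) and PBS ZT23 (0.318 ± 0.135 CPM). Of neighbors in that order, the ranges of vancomycin ZT5 and PBS ZT5 did not overlap and all others did.

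In GF mice the on libraries sat partly in other groups, and more groups were mixed. At ZT5 PBS libraries had 0.614, 0.430, 0.207 and 6.29 CPM of Nlrp1b and vancomycin libraries 0.210, 7.85, 0.227 and 0.408 CPM, 1 on in each. At ZT11 PBS libraries had 0.393, 0.404, 0.135 and 0.595 CPM and vancomycin libraries 9.0, 13.6, 12.6 and 8.41 CPM. All 4 PBS libraries were off and all 4 vancomycin libraries on. The 2 treatments did not overlap, in either direction, for 3.27% of all genes at GF ZT11. At the same hour in SPF mice, 1 of 4 PBS and 4 of 4 vancomycin libraries were on, with overlapping ranges. The GF ZT11 means were 0.382 ± 0.189 with PBS and 10.9 ± 2.58 with vancomycin (SD, n = 4 each), a log2 difference of 4.79. At ZT17 PBS libraries had 10.7, 8.54, 8.38 and 0.238 CPM and vancomycin libraries 0.836, 0.233, 0.292 and 10.7 CPM. Here 3 of 4 PBS and 1 of 4 vancomycin libraries were on, and the ranges of the 2 treatments overlapped. In SPF mice at ZT17, 4 of 4 and 0 of 4 were on, but the gene was picked for those values. At ZT23 PBS libraries had 9.87, 0.584, 19.4 and 0.517 CPM and vancomycin libraries 13.5, 8.50, 17.9 and 10.2 CPM. Of the 8 GF groups, 2 were all on, 1 all off and 5 mixed, whereas of the 8 SPF groups 4 were all on, 3 all off and 1 mixed. By treatment, 9 of 16 SPF PBS, 8 of 16 SPF vancomycin, 6 of 16 GF PBS and 10 of 16 GF vancomycin libraries were on.

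**Figure D1:**
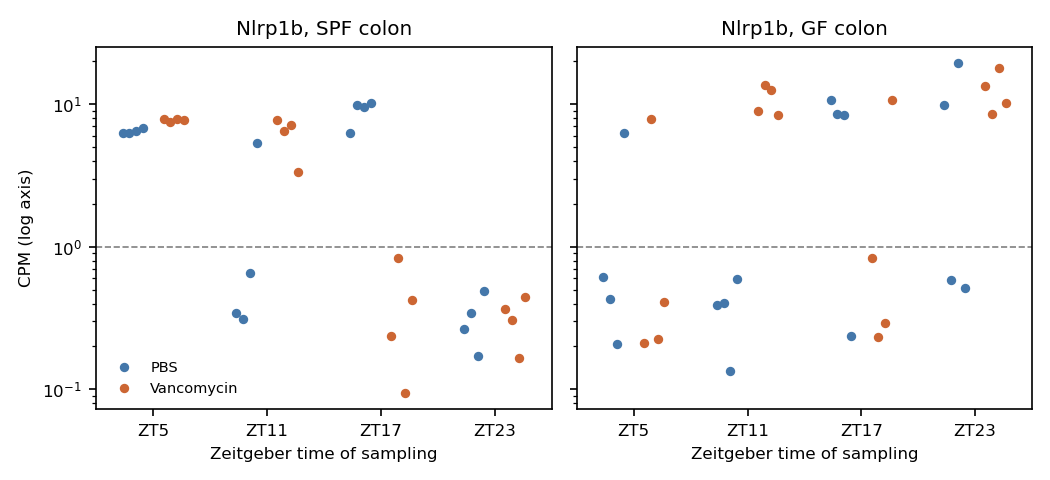
Nlrp1b level in CPM (log axis) in each of the 64 libraries by zeitgeber time, with SPF mice on the left, GF mice on the right and 1 point a library in the color of its treatment. The dashed line is the 1 CPM threshold: 17 of 32 SPF and 16 of 32 GF libraries lie above it, and no library lies between 0.836 and 3.35 CPM.

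Genes near Nlrp1b on mouse chromosome 11 ranked differently over the libraries. Its neighbor Nlrp1a, the gene most like it in sequence, had Spearman rank correlations with Nlrp1b of -0.25 over the 32 SPF libraries and -0.23 over the 32 GF libraries. The pseudogene Nlrp1c-ps on the other side reached at most 0.0865 CPM in SPF and 0.0919 CPM in GF libraries. Among the tested genes within 10 genes on either side, the correlations ran from -0.46 (C1qbp) to 0.40 (Pimreg) in SPF and from -0.33 (Pitpnm3) to 0.41 (Dhx33) in GF libraries. The libraries of a table share groups and times, so these correlations are descriptions.

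The promoters of the neighbors are shown because the genes are close copies whose levels differed. Both sequences come from the RefSeq promoter table of build GRCm38.p6, run from 250 bases before to 50 bases after the gene's start, and are written 5′ to 3′ on the minus strand of chromosome 11. The Nlrp1a promoter lies at chr11:71144655-71144954 and the Nlrp1b promoter at chr11:71230684-71230983. Capitals mark the 29 aligned bases of each that differ from the other in a pairwise alignment. Lower case marks identical bases and also bases that face no base of the other sequence, at the ends or in gaps.
Nlrp1a: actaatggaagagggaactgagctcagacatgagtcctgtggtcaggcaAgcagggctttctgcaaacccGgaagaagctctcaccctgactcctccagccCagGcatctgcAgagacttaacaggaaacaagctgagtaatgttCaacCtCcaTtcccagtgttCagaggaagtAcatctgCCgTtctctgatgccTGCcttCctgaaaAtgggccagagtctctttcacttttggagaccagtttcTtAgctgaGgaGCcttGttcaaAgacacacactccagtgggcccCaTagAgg
Nlrp1b: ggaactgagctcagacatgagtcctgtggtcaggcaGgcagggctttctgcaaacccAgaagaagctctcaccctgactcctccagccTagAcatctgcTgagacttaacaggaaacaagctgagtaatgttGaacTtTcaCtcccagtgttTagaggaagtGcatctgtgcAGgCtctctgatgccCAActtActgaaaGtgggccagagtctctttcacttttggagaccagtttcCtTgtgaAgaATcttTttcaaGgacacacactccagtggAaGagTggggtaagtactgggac
Of 282 aligned bases 253 were identical (89.7%). The table lists another start for Nlrp1b, whose promoter aligned with that of Nlrp1a over 33 bases only. The deposited values come from build GRCm39 per the submitters' processing notes, so these coordinates apply to the promoter table alone. The values are per gene and do not show which start was used.

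Of all tested genes, the one ranked most like Nlrp1b over libraries varied far less. Eif4a2, which encodes an RNA helicase of translation initiation, had the highest value of the lower of its SPF and GF rank correlations with Nlrp1b, 0.59 in SPF and 0.61 in GF (n = 32 libraries each). Zfp758 (0.55 and 0.53), Rab33b (0.57 and 0.52) and Ctbs (0.52 and 0.48) came next, followed by 2610008E11Rik, Ttc41, Crebrf, Cep57l1, Zfp60 and Trpv1. Eif4a2 varied between 356.6 and 642.2 CPM over SPF and between 339.1 and 616.7 CPM over GF libraries. Nlrp1b varied 107.1-fold over SPF libraries and 143-fold over GF libraries.

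Of the other 9 members, 0 passed the test for vancomycin against PBS over all times in SPF mice (edgeR's quasi-likelihood test, Benjamini-Hochberg adjusted p under 0.05), beside 0.809% of 16938 genes tested. Nlrp3 and Nlrc4 had an unadjusted p under 0.05, as did 16.2% of all genes, and DESeq2 called 0 members. In GF mice 0 of the 8 members tested passed, beside 0% of 16951 genes; 0 of the 8 and 672 of all genes had an unadjusted p under 0.05, and DESeq2 called 0 of the 8 and 5 of all genes. Nlrp3 had 3 GF libraries with 10 or more counts and so missed the filter of 4. In SPF mice Nlrp3 and Nlrp1a passed that filter only through their vancomycin libraries. With vancomycin 6 and 7 libraries had 10 or more counts, against 1 and 3 with PBS. The SPF minus GF difference of the vancomycin effect passed for 0 of 8 members and for 0% of 16604 genes. At an unadjusted p under 0.05 it held 1 of 8 members, Casp4, and 1651 genes, and DESeq2 called 0 members and 16 genes.

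**Figure D2:**
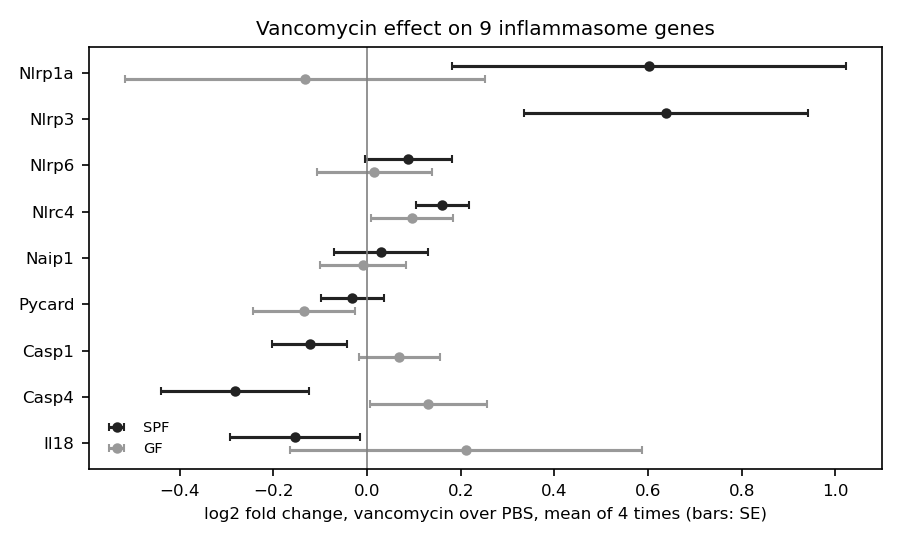
Vancomycin effect on the 9 members other than Nlrp1b as a log2 fold change (mean over 4 times of vancomycin minus PBS, 16 libraries per treatment; bars are SE), with SPF mice in black and GF mice in grey. Nlrp3 has no GF value; Nlrc4 in SPF mice lies at 0.16 ± 0.06, and no value passed the adjusted test.

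Single times gave no call for these 9 members either. In SPF mice 0 of 9 passed at ZT5 (0.0827% of all genes did), at ZT11 (0%), at ZT17 (0.319%) and at ZT23 (0%), and DESeq2 called 0 at any time. At an unadjusted p under 0.05 there was Nlrc4 at ZT11 and at ZT23, with 1670 and 1243 of all genes at those times. In GF mice 0 of 8 passed at any of the 4 times, as did 0% of all genes, and DESeq2 called 0 of the 8. Casp4 at ZT11 and Nlrp1a at ZT17 and ZT23 had an unadjusted p under 0.05 there, beside 832, 757 and 2050 genes at those times. The treatment by time interaction passed for 0 of 9 members in SPF mice (0.36% of all genes) and 0 of 8 in GF mice (0%), with DESeq2 also at 0. At an unadjusted p under 0.05 it held 0 of 9 members in SPF mice, beside 9.79% of all genes, and 1 of 8, Nlrp1a, in GF mice, beside 8.29%.

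Nlrp1a (ENSMUSG00000069830), a sensor related to Nlrp1b, was near the detection limit, with at most 19.9 estimated counts in any SPF or GF library. In SPF mice at ZT5 it had 0.336, 0.0779, 0.311 and 0.371 CPM with PBS and 0.639, 0.803, 0.420 and 1.67 CPM with vancomycin. The ranges did not overlap, as for 8.73% of all genes at that time, and the log2 difference was 1.64 ± 0.87 (SE, adjusted p = 0.391). As stated above, Nlrp1a passed the SPF filter only through vancomycin libraries. In GF mice at ZT23 it had 0.308, 0.969, 0.312 and 0.60 CPM with PBS and 0.165, 0.289, 0.0759 and 0.155 CPM with vancomycin. The ranges again did not overlap, as for 6.61% of all genes, now with PBS higher, at a log2 difference of -1.62 ± 0.74 (adjusted p = 0.382). Over all times the SPF value was 0.60 ± 0.42 (adjusted p = 0.508) and the GF value -0.13 ± 0.38 (adjusted p = 1). In the same GF ZT23 groups the 7 T cell markers summed to 27.5 to 385.3 CPM with PBS and 4.67 to 28.6 CPM with vancomycin. The 5 B cell markers summed there to 115.2 to 891.2 against 3.10 to 39.2 CPM and the 9 macrophage markers to 128 to 209.1 against 43.1 to 105.3 CPM, both without overlap. The part of these cells in the Nlrp1a values at ZT23 was not tested. With the T cell marker level as a term in the fit, the SPF value of Nlrp1a over all times was -0.29 (adjusted p = 0.797) and the GF value 0.11 (adjusted p = 1).

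Nlrp3 (ENSMUSG00000032691), a sensor of membrane and ion disturbance in myeloid cells, was about as low. SPF PBS libraries had 0.0781 to 0.931 CPM with a median of 0.384, and SPF vancomycin libraries 0.165 to 1.01 CPM with a median of 0.60 (n = 16 each), so the treatments overlapped. The log2 value was 0.64 ± 0.30 (unadjusted p = 0.0442, adjusted p = 0.296, edgeR). Since Nlrp3 passed the filter only through vancomycin libraries, where it was higher, no conclusion is drawn from this test. In GF libraries Nlrp3 ran from 0 to 0.974 CPM with PBS and from 0 to 0.633 CPM with vancomycin. Its level ranked over libraries with that of the 9 macrophage markers (rho 0.68 in SPF, 0.70 in GF, n = 32 each). It also ranked with the T cell markers (0.67 and 0.46) and the B cell markers (0.65 and 0.47). With either the macrophage or the T cell level as a term the SPF value was 0.17 (adjusted p = 0.879 for each, edgeR). With the epithelial, Y-linked and posterior Hox levels it was 0.40, 0.55 and 0.66. Nlrp1a ranked likewise with the macrophage markers (rho 0.60 and 0.61), the T cell markers (0.66 and 0.72) and the B cell markers (0.68 and 0.64). With the macrophage level as a term the SPF value of Nlrp1a was 0.08 (adjusted p = 0.971, edgeR). With the epithelial, Y-linked and posterior Hox levels it was 0.21, 0.32 and 0.60.

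Nlrp6 (ENSMUSG00000038745), a sensor expressed in gut epithelium, was among the abundant members. At SPF ZT5 it had 132, 153, 180 and 172 CPM with PBS and 187, 181, 211 and 219 CPM with vancomycin. At SPF ZT23 it had 178, 156, 183 and 126 CPM with PBS and 188, 204, 199 and 190 CPM with vancomycin. The vancomycin libraries lay above all PBS libraries at both times, which 8.73% and 5.11% of all genes did in either direction. At ZT11 and ZT17 the ranges overlapped, with means of 169 ± 24.4 and 203 ± 18.1 CPM for PBS and 148 ± 50.1 and 193 ± 42.0 CPM for vancomycin (SD, n = 4 each). The log2 value over all times was 0.09 ± 0.09 in SPF mice (adjusted p = 0.690) and 0.02 ± 0.12 in GF mice (adjusted p = 1), where Nlrp6 ran from 129 to 315 CPM.

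Of the 9 members, 2 (Nlrp1a and Nlrp6) did not overlap between treatments at SPF ZT5, 1 (Nlrp6) at SPF ZT23 and 1 (Nlrp1a) at GF ZT23, beside 8.73%, 5.11% and 6.61% of all genes. None of the 9 was without overlap at SPF ZT11 (2.99% of all genes), SPF ZT17 (5.93%), GF ZT5 (1.14%), GF ZT11 (3.27%) or GF ZT17 (1.98%).

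Nlrc4 (ENSMUSG00000039193) and Naip1 (ENSMUSG00000021640) act together: a Naip protein binds the bacterial ligand and Nlrc4 builds the complex. Nlrc4 had 28.2 to 42.3 CPM in SPF PBS libraries, with a mean of 37.1 ± 3.49, and 33.3 to 48.2 CPM in SPF vancomycin libraries, with a mean of 41.4 ± 5.03 (SD, n = 16 each). Its log2 value of 0.16 ± 0.06 (unadjusted p = 0.00857, adjusted p = 0.168, edgeR) did not pass after adjustment over all genes. At ZT23, where its value was 0.27 ± 0.11 (adjusted p = 0.584), PBS libraries had 34.1, 36.1, 39.7 and 37.2 CPM and vancomycin libraries 45.7, 38.8, 47.8 and 45.2 CPM, so that 3 of 4 vancomycin libraries lay above all PBS libraries. In GF mice Nlrc4 ran from 35.0 to 60.3 CPM with PBS and from 34.4 to 73.7 CPM with vancomycin, a log2 value of 0.10 ± 0.09 (adjusted p = 1). Naip1 had a mean of 232 ± 41.5 CPM with PBS and 236 ± 45.7 CPM with vancomycin in SPF mice, and of 230.2 ± 29.9 and 229 ± 47.5 CPM in GF mice (SD, n = 16 each). Its log2 values were 0.03 ± 0.10 in SPF (adjusted p = 0.929) and -0.01 ± 0.09 in GF mice (adjusted p = 1). The levels of Naip1 and Nlrc4 ranked alike over libraries (rho 0.68 in SPF and 0.60 in GF, n = 32 each).

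**Figure D3:**
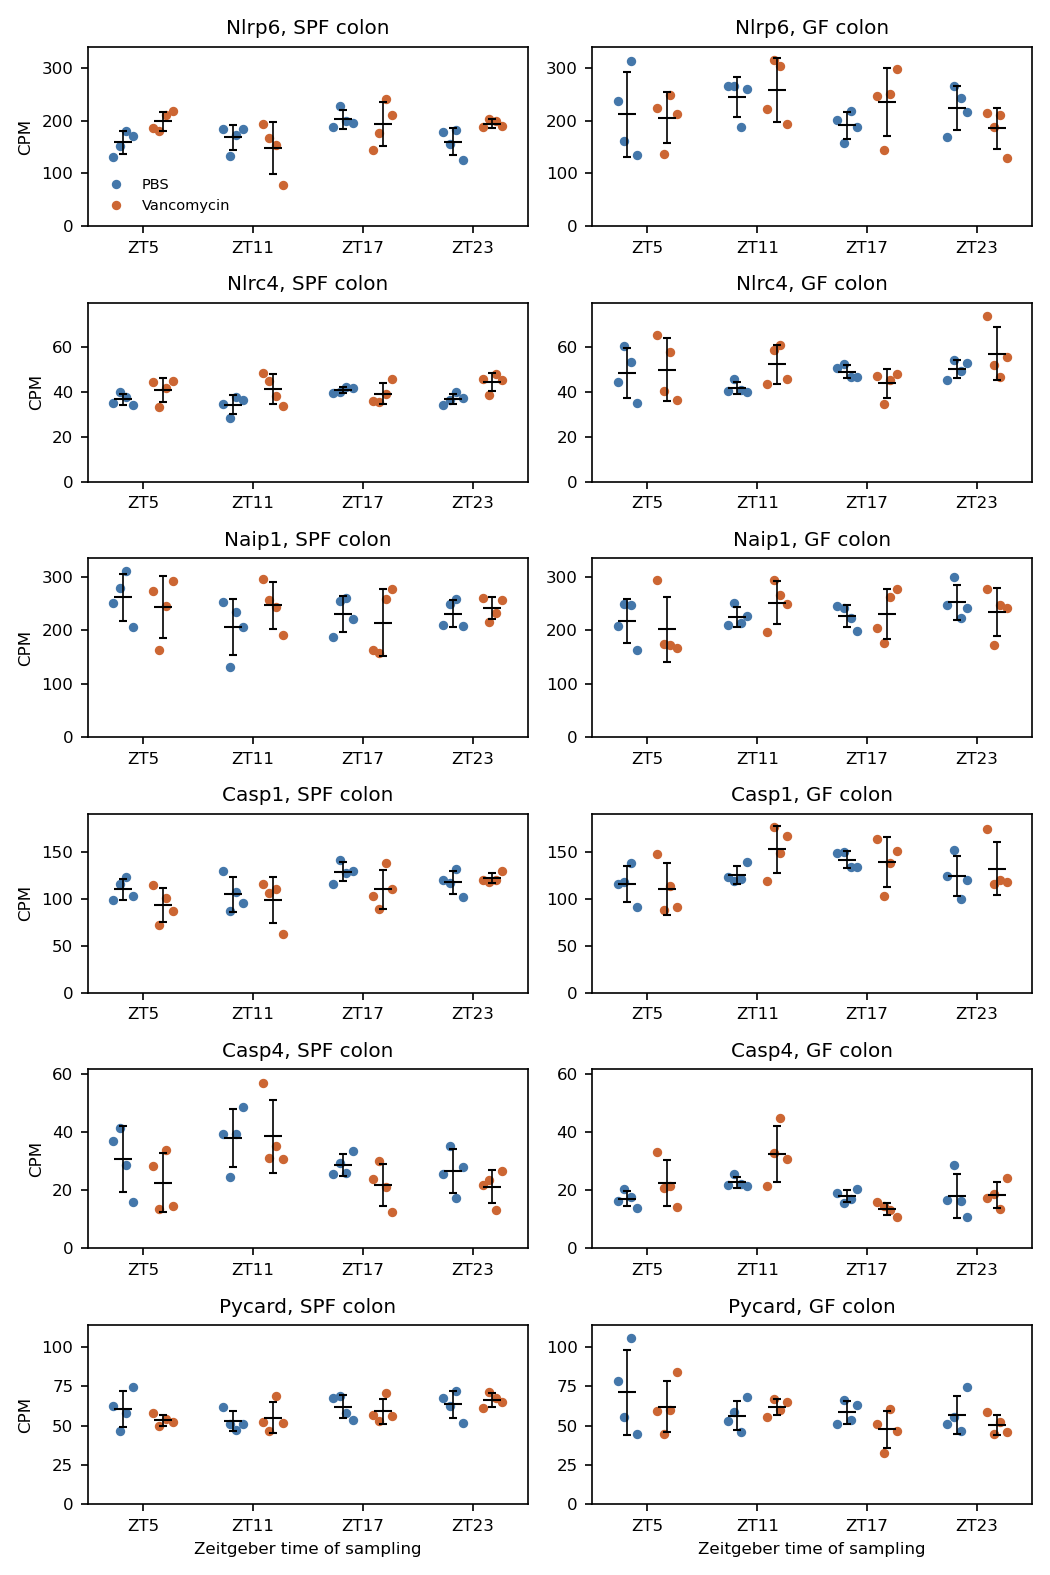
Levels of Nlrp6, Nlrc4, Naip1, Casp1, Casp4 and Pycard in CPM (axes from 0) by zeitgeber time, SPF left and GF right, with 1 point a library in the color of its treatment and the mean ± SD of each group of 4 libraries in black. PBS and vancomycin points overlap except for Nlrp6 in SPF mice at ZT5 and ZT23, and Casp4 has its highest means at ZT11 in both kinds of mice.

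Pycard (ENSMUSG00000030793), the adaptor that links sensors to caspase-1, had 46.8 to 74.4 CPM with PBS and 46.5 to 71.6 CPM with vancomycin in SPF libraries (medians 60.0 and 56.6, n = 16 each). The treatments spanned nearly the same range, and the log2 value was -0.03 ± 0.07 (adjusted p = 0.872). In GF libraries Pycard had 44.9 to 105.6 CPM with PBS and 32.7 to 84.0 CPM with vancomycin, a log2 value of -0.13 ± 0.11 (adjusted p = 1). Of the 31-base words of its transcripts, 12.0% occur in the gene model Gm45205.

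Casp1 (ENSMUSG00000025888) encodes the protease that matures interleukin 18. SPF libraries had 86.9 to 141 CPM with PBS (median 117) and 62.6 to 138 CPM with vancomycin (median 111), and GF libraries 91.8 to 152 CPM and 88.4 to 176 CPM. These ranges overlapped throughout. The log2 value was -0.12 ± 0.08 in SPF mice (adjusted p = 0.473) and 0.07 ± 0.09 in GF mice (adjusted p = 1), and the SPF minus GF difference was -0.20 ± 0.12 (adjusted p = 0.598). Casp1 ranked with the epithelial markers in SPF libraries (rho 0.74) and less in GF libraries (0.21), a difference that was not tested.

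Casp4 (ENSMUSG00000033538), known in mice as caspase-11, senses lipopolysaccharide in the cytosol. SPF libraries had 16.1 to 48.7 CPM with PBS (median 29.03) and 12.7 to 57.1 CPM with vancomycin (median 25.2), a log2 value of -0.28 ± 0.16 (adjusted p = 0.389). GF libraries had 10.7 to 28.6 CPM with PBS (median 18.3) and 10.8 to 45.0 CPM with vancomycin (median 19.8), a log2 value of 0.13 ± 0.13 (adjusted p = 1). The signs were opposite, but the difference of -0.42 ± 0.21 did not pass (unadjusted p = 0.0489, adjusted p = 0.501, edgeR).

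By time of day, Casp4 was the member nearest to a call in both kinds of mice. In SPF mice its mean was 26.8 ± 10.8 CPM at ZT5, 38.3 ± 10.49 at ZT11, 25.3 ± 6.41 at ZT17 and 24.01 ± 6.83 at ZT23 (SD, n = 8 each, PBS and vancomycin together). In GF mice it was 19.9 ± 6.13, 27.7 ± 8.29, 15.8 ± 3.10 and 18.3 ± 5.72 CPM at the same times. Both tables had the highest mean at ZT11, and both adjusted p were 0.0671 (edgeR, unadjusted p = 0.0162 in SPF and 0.00089 in GF). The F test of time passed for 0 of 9 members in SPF mice, beside 21.1% of all genes, and for 0 of 8 in GF mice, beside 0.991%. At an unadjusted p under 0.05 there were 3 in SPF (Casp4, Il18 and Pycard) of 9 members, beside 34.4% of all genes, and 2 in GF mice (Casp4 and Il18) of 8, beside 15.7%. DESeq2 called 1 in each, Casp4, with adjusted p = 0.0297 in SPF and 0.00884 in GF, and 4470 and 740 of all genes. Of 32 SPF fits that each left out 1 library, Casp4 passed in 3 (without PBS ZT11 replicate 2, vancomycin ZT5 replicate 3 or vancomycin ZT17 replicate 2), and adjusted p ran from 0.0342 to 0.215. Over the 10 other SPF alternatives it passed in 2 (DESeq2 and the epithelial level as a term) and its adjusted p reached 0.506, with the posterior Hox level as a term. In GF mice it passed in 4 of 32 (without PBS ZT23 replicate 2 or 4, vancomycin ZT5 replicate 1 or vancomycin ZT11 replicate 1), with adjusted p from 0.0283 to 0.188. Pycard and Il18 in SPF mice each passed in 1 of 32, without vancomycin ZT11 replicate 3 and PBS ZT11 replicate 1, with adjusted p from 0.0458 to 0.253 and from 0.0374 to 0.262. Pycard also passed with the T cell marker level as a term (adjusted p = 0.0212). In SPF mice 6 of 6 smooth muscle markers also changed by time of day (edgeR), and in GF mice 0 of 6 passed, with 0 at an unadjusted p under 0.05. Their summed level in SPF mice was 7667 to 19230 CPM at ZT11 and 2938 to 6543 CPM at ZT23. The rank correlation of Casp4 with them was 0.53 over the 32 SPF and -0.04 over the 32 GF libraries, and their part in its levels was not tested.

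Il18 (ENSMUSG00000039217) is the cytokine at the end of the pathway. In SPF libraries it had 35.4 to 100.6 CPM with PBS (median 66.9) and 38.5 to 102.9 CPM with vancomycin (median 59.9), a log2 value of -0.15 ± 0.14 (adjusted p = 0.625). At SPF ZT17 PBS libraries had 93.5, 97.0, 77.6 and 100.6 CPM and vancomycin libraries 74.7, 42.7, 102.9 and 55.6 CPM. The PBS libraries there were mostly higher, but 1 vancomycin library exceeded them all, and the log2 value was -0.42 ± 0.28 (adjusted p = 0.742). The SPF time means were 69.8 ± 17.5 CPM at ZT5, 58.3 ± 20.4 at ZT11, 80.6 ± 22.2 at ZT17 and 55.1 ± 10.4 at ZT23 (SD, n = 8 each; adjusted p = 0.127).

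In GF mice Il18 varied far more, from 6.81 to 47.8 CPM with PBS (median 26.9) and from 3.72 to 102.5 CPM with vancomycin (median 21.3). At GF ZT5 PBS libraries had 45.1, 7.08, 12.1 and 6.81 CPM and vancomycin libraries 8.03, 7.02, 3.72 and 34.3 CPM. At GF ZT11 PBS libraries had 38.6, 40.9, 7.86 and 38.3 CPM and vancomycin libraries 11.9, 101, 102.5 and 56.0 CPM. High and low libraries thus stood side by side in the same groups. The log2 value over all times was 0.21 ± 0.38 (adjusted p = 1).

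The GF level of Il18 went with that of the posterior Hox genes Hoxb13, Hoxd10, Hoxd11, Hoxd12 and Hoxd13. The 100 CPM boundary was set after these levels were seen. In the 14 GF libraries whose posterior Hox genes summed to under 100 CPM (7.20 to 79.6 CPM), Il18 ran from 3.72 to 13.7 CPM. In the other 18, with 141 to 525.1 CPM of posterior Hox genes, Il18 ran from 17.6 to 102.5 CPM. Of the 14 libraries, 6 had PBS and 8 vancomycin, and all 32 SPF libraries lay above 100 CPM. With the posterior Hox level as a term in the fit, the GF value of Il18 was -0.06 (adjusted p = 0.971). Without that term, leaving out each GF library in turn gave -0.11 to 0.47. Markers listed for neutrophils also moved with Il18, at 3.97 to 15.3 CPM in those 14 libraries and 12.9 to 135.5 CPM in the other 18, although the defining markers S100a8, S100a9 and Retnlg reached at most 0.211, 0.188 and 0.158 CPM in GF libraries. The genes ranked most like Il18 over both tables were Lgr4, a receptor of crypt stem cells (rho 0.73 in SPF and 0.88 in GF), Defb45 (0.72 and 0.91) and Tgm3 (0.72 and 0.92). The part of colon position in these levels was not tested.

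**Figure D4:**
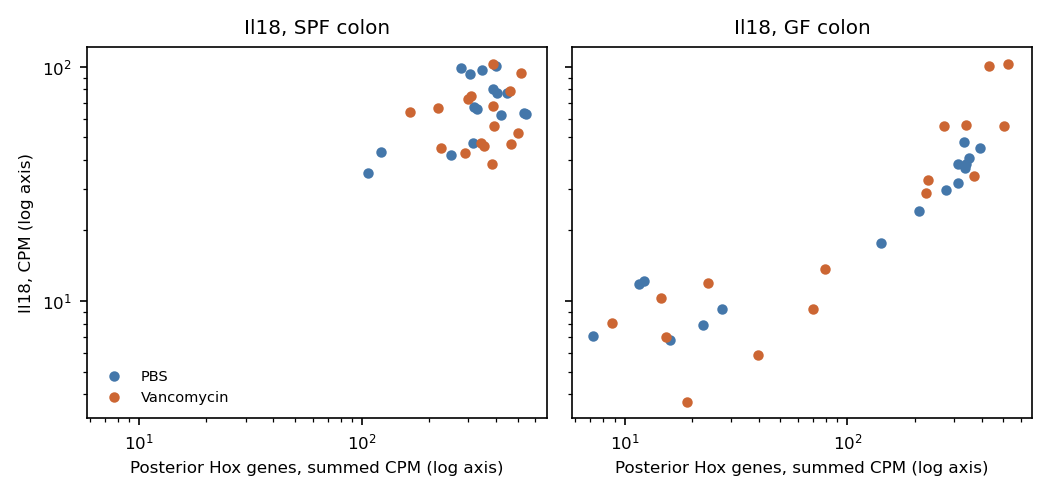
Il18 level against the summed level of 5 posterior Hox genes, both in CPM on log axes, with 1 point a library, SPF mice left and GF mice right. The 14 GF libraries under 100 CPM of posterior Hox genes have 3.72 to 13.7 CPM of Il18, the other 18 have 17.6 to 102.5 CPM, and the SPF libraries have 35.4 to 102.9 CPM.

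For the other members, the genes ranked most alike over both tables (n = 32 libraries each) were these. Nlrp1a went with Mpeg1, which encodes a pore-forming protein of macrophages (rho 0.75 in SPF and 0.76 in GF), Ipcef1 and Fermt3. Nlrp3 went with C1ra, a complement protease (0.69 and 0.69), Slc15a3 and Fxyd5. Nlrp6 went with Plekha6 (0.66 and 0.67), Zdhhc23 and Mgat3, and Nlrc4, among others, with Elmod2 (0.73 and 0.77) and Erbin (0.73 and 0.73). Naip1 went with Chmp1b (0.87 and 0.79), Cxadr and Kif13b. Casp1 went with Anks4b, a brush border protein (0.81 and 0.76), Plscr1 and Ugt2b34, and Casp4 with Bnip5 (0.68 and 0.66), Nuak2 and Xk. Pycard went with Tmem205 (0.76 and 0.76), Psma7 and Atp5h.

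Around the members, a list of 52 genes held other sensors, regulators, effectors, and receptors and inhibitors of the interleukin 1 family. The tables held 51 of them, and 44 in SPF and 43 in GF mice passed the filter. In SPF mice 3 of the 44 rose with vancomycin over all times and 1 fell (edgeR adjusted p under 0.05), beside 0.809% of all genes. The median log2 value of the 44 was 0.12 with 32 of 44 positive, against a median of -0.004 over all genes with 48.8% positive. The list was drawn up with earlier results of these data known.

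Gbp2 and Irgm1 were the 2 of 15 regulators that rose. Both are interferon-induced GTPases that act at membranes of intracellular microbes, and guanylate binding proteins help expose lipopolysaccharide to caspase-11. Irgm1 had 23.6 to 46.7 CPM with PBS and 27.8 to 57.1 CPM with vancomycin at ZT5, where the groups overlapped. At ZT23 it had 34.1 to 39.1 against 42.2 to 81.3 CPM, without overlap, as for 5.11% of all genes at that time. Over all times its log2 value was 0.59 ± 0.13 (adjusted p = 0.0339), with means of 31.3 ± 6.49 and 47.4 ± 17.3 CPM (SD, n = 16 each). Gbp2 had a log2 value of 1.02 ± 0.22 (adjusted p = 0.0264), and at ZT23 its vancomycin libraries ran from 31.5 to 224.9 CPM against 26.2 to 40.1 CPM with PBS, with overlap.

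Il18bp, the secreted protein that binds and neutralizes interleukin 18, was the 1 of 9 receptors and inhibitors that rose. It had a mean of 5.29 ± 2.27 CPM with PBS and 9.999 ± 5.53 CPM with vancomycin (SD, n = 16 each), a log2 value of 0.90 ± 0.21 (adjusted p = 0.0339). At ZT11 its PBS libraries ran from 2.97 to 6.02 CPM and its vancomycin libraries from 4.00 to 24.1 CPM, with overlap. Sigirr, an inhibitory receptor of the family, had a value of 0.27 ± 0.07 (adjusted p = 0.0555).

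Of effectors and sensors chosen for their roles after their values were seen, Gsdmd, the pore former of the pathway, had a value of 0.07 ± 0.08 (adjusted p = 0.715), and Il1b -0.32 ± 0.26 (adjusted p = 0.568). Of 12 other sensors tested 0 passed, 3 had an unadjusted p under 0.05, and Aim2 had -0.03 ± 0.10 (adjusted p = 0.937).

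DESeq2 also called Gbp2, Irgm1 and Il18bp, but 4 of 5 marker levels added to the fit ended these calls. With the T cell marker level as a term, the values were 0.53 for Il18bp (adjusted p = 0.129), 0.83 for Gbp2 (0.128) and 0.49 for Irgm1 (0.134). With the macrophage level they were 0.58 (0.145), 0.74 (0.132) and 0.53 (0.116), and with the epithelial level 0.67 (0.131), 1.00 (0.0729) and 0.62 (0.0679), in the same order. With the Y-linked level they were 0.69 (0.0968), 0.93 (0.0672) and 0.50 (0.0888). With the posterior Hox level they stayed past the threshold, at 0.90 (0.0390), 1.02 (0.0303) and 0.58 (0.0388). Calls over all genes also fell, from 137 to 47 with the T cell, 32 with the macrophage, 26 with the epithelial and 50 with the Y-linked level. With the posterior Hox level there were 146. The loss of calls is thus not particular to these genes. The part of the cell types or of the Y-linked level in the changes was not tested further. Of 32 fits that each left out 1 library, Gbp2 passed in 31, Irgm1 in 20 and Il18bp in 18, with adjusted p up to 0.0550, 0.0662 and 0.0663. Gbp2 missed without vancomycin ZT5 replicate 4, which also gave the highest p for Irgm1 and Il18bp.

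In GF mice 0 of 43 listed genes passed over all times, with 0 at an unadjusted p under 0.05. The smallest p belonged to Il18rap, a subunit of the interleukin 18 receptor (-0.57 ± 0.29), Gbp2 (0.49 ± 0.25) and Nlrp9b (0.21 ± 0.13), all with adjusted p = 1. Il18bp had 0.39 ± 0.24 in GF mice. The SPF minus GF difference passed for 0 of 43, with 6 of 43 at an unadjusted p under 0.05, beside 9.94% of all genes. Among the smallest p there were those of Txnip (-0.41 ± 0.14, adjusted p = 0.405) and Sigirr (0.29 ± 0.11, adjusted p = 0.424).

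At single times 0 of the listed genes passed in either table (edgeR). Unadjusted p under 0.05 were held by 5, 12, 11 and 6 of 44 in SPF mice at ZT5, ZT11, ZT17 and ZT23, and by 0, 2, 6 and 3 of 43 in GF mice. Over all genes the shares were 14.2%, 9.86%, 8.65% and 7.34% in SPF and 3.58%, 4.91%, 4.47% and 12.1% in GF mice. In SPF mice at ZT5 the genes with the smallest p included Ninj1, which ruptures the membrane of dying cells (-0.55 ± 0.12, adjusted p = 0.0694), and Il18bp (1.18 ± 0.42, adjusted p = 0.205). At ZT11 they belonged to Sigirr (0.57 ± 0.14, adjusted p = 0.125), Il18bp and Ninj1, at ZT17 to the channel gene Panx1 (0.44 ± 0.15, adjusted p = 0.347), P2rx7 and Il33, and at ZT23 they included Gbp2 (1.39 ± 0.44, adjusted p = 0.386) and Nod1. In GF mice they belonged at ZT5 to Serpinb1a, Il1rap and Il18bp, at ZT11 to Il1rap, Il1rn and Gbp2, and at ZT17 they included Gbp5 and Brcc3, with adjusted p of 0.994 or more. At GF ZT23 they belonged to Nlrc3 (-1.56 ± 0.42, adjusted p = 0.309), Mefv (-2.55 ± 0.99, adjusted p = 0.329) and Nlrc5 (-1.92 ± 0.81, adjusted p = 0.356), in the groups whose summed T cell markers were 27.5 to 385.3 CPM with PBS and 4.67 to 28.6 CPM with vancomycin.

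By time of day, 9 of 44 listed genes changed in SPF mice, beside 21.1% of all genes and, as above, 6 of 6 smooth muscle markers, whose part in these changes was not tested. Nek7, a partner of Nlrp3, ran from 94.8 ± 6.93 CPM at ZT11 to 74.3 ± 3.04 CPM at ZT23 (SD, n = 8 each; adjusted p = 0.000122). Il1r1, the interleukin 1 receptor, had 25.1 ± 3.36 CPM at ZT11 and 17.6 ± 1.78 CPM at ZT23 (adjusted p = 0.000809). Casp12 had 17.9 ± 4.87 CPM at ZT11 and 9.22 ± 2.08 CPM at ZT23 (adjusted p = 0.00158). The flagellin sensors Naip5 and Naip6 had the opposite order, with 55.5 ± 7.66 and 57.7 ± 8.71 CPM at ZT11 and 75.3 ± 3.17 and 85.2 ± 15.1 CPM at ZT23 (adjusted p = 0.0138 and 0.00974). Panx1, Sigirr and Nlrx1 were among the others that changed (adjusted p = 0.0182, 0.0315 and 0.0325). In GF mice 1 of 43 changed, beside 0.991% of all genes: Zbp1, a sensor of Z-form nucleic acids, with 60.6 ± 35.3 CPM at ZT11 and 15.7 ± 8.91 CPM at ZT5 (SD, n = 8 each; adjusted p = 0.0202).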

How the data were processed

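Per the submitters' processing notes, reads were trimmed with Trim Galore 0.6.2 and cutadapt 3.5 and quantified with Salmon against mouse build GRCm39. The authors deposited 1 table of SPF and 1 table of GF libraries of values treated here as estimated counts, since they were not whole, summed to a different total in each library and had a commonest low value near 1 (0.965 to 1.005). They were rounded for the tests.

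Genes with 10 or more counts in at least 4 libraries of a table were tested with edgeR 4.0.16 (limma 3.58.1, R 4.3.3): TMM factors, a mean for each of 8 groups, quasi-likelihood F tests, and Benjamini-Hochberg adjustment over all genes tested, called at 0.05. The vancomycin effect over all times is the mean of the 4 differences, and the SPF minus GF difference came from 1 fit of all 64 libraries. SPF and GF were deposited as separate tables, so levels are set side by side without a test. CPM are estimated counts per 1000000 of the tested total times its TMM factor. Counting error at these totals leaves Nlrp1a and Nlrp3 imprecise. Likeness is the lower of the SPF and GF Spearman correlations of log2 CPM (with 0.5 added) over 32 libraries each. Shared sequence was counted in words of 31 bases of the annotated transcripts. Python 3.11.15, scipy 1.17.1 and matplotlib 3.10.9 were used, and the statistics were tested on simulated data.

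Named genes were the 10 members, list genes called in a contrast or among the 3 smallest p in a vancomycin contrast, and genes ranked most alike. A few genes that this rule names are not reported here, though counts include them. The members and lists were chosen with earlier results of these data known. No p-value and no standard error (SE) of a log2 difference is given for Nlrp1b. Log2 values of other genes are given ± SE. Alternatives were DESeq2 1.42.0, another scaling, other filters, a replicate block, marker covariates and leaving out each library.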

Additional observations from a re-analysis of the deposited data

Results flagged for a closer look

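In 13 of 160 groups of 4 libraries (10 genes in 16 groups), 1 library stood apart from the other 3 on the log2 scale by Dixon's 95% criterion for a gap, and chance alone gives about 1 in 20. For Nlrp1b these were SPF PBS ZT17 replicate 1 at 6.29 CPM (others 9.51 to 10.2), GF vancomycin ZT5 replicate 2 at 7.85 CPM (others 0.210 to 0.408) and GF PBS ZT17 replicate 4 at 0.238 CPM (others 8.38 to 10.7). Nlrp3 had 0.0781 CPM in SPF PBS ZT5 replicate 2 (others 0.378 to 0.426) and 0.441 CPM in GF PBS ZT17 replicate 3 (others 0.0740 to 0.0753), a difference of a few counts. Nlrp6 had 188 CPM in GF PBS ZT11 replicate 3 (others 260 to 266), the library in which Il18 had 7.86 CPM (others 38.3 to 40.9). Naip1 had 293 CPM in GF vancomycin ZT5 replicate 1 (others 166 to 174). Casp1 had 62.6 CPM in SPF vancomycin ZT11 replicate 4 (others 106 to 116), 130 CPM in SPF vancomycin ZT23 replicate 4 (others 118 to 120) and 175 CPM in GF vancomycin ZT23 replicate 1 (others 115 to 120). Casp4 had 25.6 CPM in GF PBS ZT11 replicate 2 (others 21.7 to 22.1). Il18 had 47.1 CPM in SPF PBS ZT23 replicate 4 (others 62.0 to 63.7).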

How the results depend on the processing

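In the 7 sets of tests of vancomycin and of its interaction with time, 0 members passed under every alternative run. By time of day, where 0 passed with edgeR, 1 SPF member passed with DESeq2, the macrophage covariate or the epithelial covariate and 2 with the T cell covariate, and leaving out 1 library gave 0 to 1. In GF mice 1 passed with DESeq2, and leaving out 1 library gave 0 to 1. The cause was not tested. Casp1 passed with the macrophage (adjusted p = 0.0220) and T cell (0.0348) covariates, Casp4 with the epithelial one (0.0389) and Pycard with the T cell one (0.0212). No called value changed sign, and 40 of 2890 uncalled values did. The T cell and Y-linked covariates were chosen after seeing the data.

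Over all genes, the 137 SPF calls became 493 with DESeq2, 80 with no filter, 32, 26, 47 and 50 with the macrophage, epithelial, T cell and Y-linked covariates, and 47 to 521 with 1 library left out. The 61 SPF interaction calls became 205 with DESeq2 and 40 to 83 with 1 library left out, and the 68 at single SPF times became 531 with DESeq2, 43 with the macrophage covariate and 35 to 213 with 1 library left out. The 3566 SPF time calls became 2252 with the posterior Hox covariate. The 168 GF time calls became 740 with DESeq2, 99 with no filter, 285 with the macrophage covariate and 94 to 318 with 1 library left out. Where edgeR called 0 genes, DESeq2 called 85 at single GF times, 9 for the GF interaction, 5 for the GF effect and 16 for the SPF minus GF difference. For that difference the epithelial, posterior Hox and T cell covariates gave 5, 6 and 2 genes, and the posterior Hox covariate gave 1 gene for the GF interaction and 1 at single GF times. Leaving out 1 library gave up to 1 gene for that difference and for the GF interaction, and up to 2 at single GF times.

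With replicate number as a block, 0 members passed in any test and 157 genes had an SPF vancomycin effect; the GF time calls over all genes fell from 168 to 85. Deviations from group means were correlated between libraries of the same number in different groups (112 pairs in each kind of mice). The median r was 0.021 in SPF (-0.29 to 0.49) and -0.054 in GF mice (-0.54 to 0.55). A median over all groups cannot show whether the numbers pair the libraries of some of them.

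Counting Nlrp1b as on at 0.5 CPM gave 19 SPF and 21 GF libraries, and at 2 CPM 17 and 16. Fewer than 20 counts of Nlrp1a or Nlrp3 per library limit what could be detected for them.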
